A study of Mus musculus with 4 samples.

Results

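Potassium channel genes were taken as all gene symbols that begin with Kcn followed by a letter, with the exception of Kcnj8 and Kcnj11, the pore genes of the ATP-sensitive channels. Of 95 such symbols 2 were left out in this way, and 63 of the remaining 93 had 10 or more reads in at least 1 of 4 heart libraries. These 63 genes stood among 15589 genes that met the same minimum and 23337 gene symbols in all. The other 30 symbols had at most 8 reads in any library and 8 of them had none. Just inside the limit lay Kcnip1 with 10 reads in its highest library and Kcnk1 and Kcns1 with 11 each, and just outside lay Kcnk10 with 8. The minimum was reached in both genotypes by 54 of the 63 genes. Another 4 (Kcnh8, Kcnip1, Kcnj10 and Kcnmb4) reached it only in a control library and 5 (Kcnc1, Kcnf1, Kcnk1, Kcns1 and Kcns3) only in a csPIMT-/- library, so that a difference between genotypes was built into the choice of these 9 genes.

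Potassium channels let potassium leave the cardiomyocyte and thereby end the action potential and hold the resting voltage. The voltage-gated channels of the Kcna and Kcnd families carry the transient outward and delayed rectifier currents that repolarise the mouse ventricle, whereas Kcnq1 and Kcnh2 form the slow and rapid delayed rectifiers known best from human long QT syndromes. Kcnj genes encode inward rectifiers, which set the resting voltage or, in the atria, answer to acetylcholine through G proteins. Kcnk genes encode two-pore channels that carry background currents. Beta subunits of the Kcne, Kcnip, Kcnab and Kcnmb families form no pore of their own and set the gating, the speed and the surface density of the pore-forming subunits.

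The hearts came from C57BL6/J mice of 4 groups. Controls were PIMT fl/fl mice, which carry loxP sites around exons 3 and 4 of PIMT (gene symbol Tgs1) on both alleles but no Cre, and the labels also call them WT. The csPIMT-/- mice carry the same floxed alleles together with a Cre transgene under the alpha-myosin heavy chain promoter, which acts in cardiomyocytes from the late embryonic period and leaves the gene intact in the other cells of the heart. Each genotype was sampled at 2 and 6 months of age, and RNA of 5 hearts of males and females was pooled per group, so that each group was 1 library and no group had a replicate. Reads on genes numbered between 29823073 and 40705783 per library, and each gene's level is given as the deposited normalized count, in which 1 read was worth between 0.865 and 1.23. Tgs1 itself had 579.7 and 816 normalized counts in the controls of 2 and 6 months and 160.3 and 162 in csPIMT-/- hearts, 0.276 and 0.199 of the control of the same age.

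The control library of 2 months stood apart from the other libraries in what it contained. Bmp10, a marker gene of the atrium, had 5.19 normalized counts there against 6296 in the control of 6 months. In the csPIMT-/- libraries of 2 and 6 months Bmp10 had 8564 and 1079. All 6 atrial markers examined lay more than 2-fold above the control in csPIMT-/- hearts of 2 months, with summed levels of 41731 and 126707 in the controls and 339946 and 352147 in csPIMT-/- hearts, for which Nppa counted most. At 6 months 4 of the 6 were more than 2-fold lower in csPIMT-/- hearts and 1, Nppa, was higher. Although all pools were labelled as mixed, Xist had 804.7 normalized counts in the control of 2 months and between 6369 and 25639 in the other libraries, whereas the Y-linked Ddx3y had 3150 there and between 161.5 and 513.6 in the others. Sex composition and genotype therefore cannot be told apart at 2 months. The csPIMT-/- library of 2 months also held RNA of fat and airway markers, with Adipoq at 1830 against 5.19 in its control and Bpifa1 at 978.9 against 0 reads. Of 4 white fat markers 3 were more than 2-fold higher there, whereas Fabp4 was lower (3225 against 10296). Summed white fat markers stood at 0.652 and 0.349 times the control at 2 and 6 months, and brown fat markers at 2.18 and 2.27. Of the brown fat markers Dio2 had a log2 ratio of -0.82 at 2 months. At 6 months 2 of the 4 were more than 2-fold higher, but Ucp1 was lower (12.48 against 93.22). Its log2 ratio was 7.60 at 2 months and -2.85 at 6 months. Cidea, at 2600, made up most of the brown fat sum of 2882 in csPIMT-/- hearts of 6 months. The summed skeletal muscle markers stood at 2.42 and 1.67 times the control at 2 and 6 months, a sum made up almost wholly of Acta1 and Ckm, which heart muscle also expresses. The skeletal myosins Myh1, Myh2 and Myh4 had log2 ratios of -4.61, -2.51 and -2.94 at 2 months and 1.57, 3.75 and 1.99 at 6 months, from at most 235 reads. The summed fibroblast markers stood at 0.644 and 1.26, endothelial markers at 0.674 and 1.1 and conduction markers at 0.765 and 0.55. The 10 cardiomyocyte markers were abundant in every library and summed to 0.813 of the control at 2 months and 0.548 at 6 months. Ttn was the largest part of this sum, with 1868823 and 2448081 in the controls and 1069321 and 713324 in csPIMT-/- hearts. Pln and Ttn were more than 2-fold lower at 6 months (log2 ratios -1.96 and -1.78). None of the 10 was more than 2-fold higher at that age, and the others lay between -0.89 (Ryr2) and 0.96 (Mybpc3). At 2 months Mybpc3 was more than 2-fold higher (1.02) and Pln lower (-1.36). The part of these markers and that of the atrial, fat and sex markers in the results below was not tested except where a value without the control of 2 months is given.

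**Figure D1:**
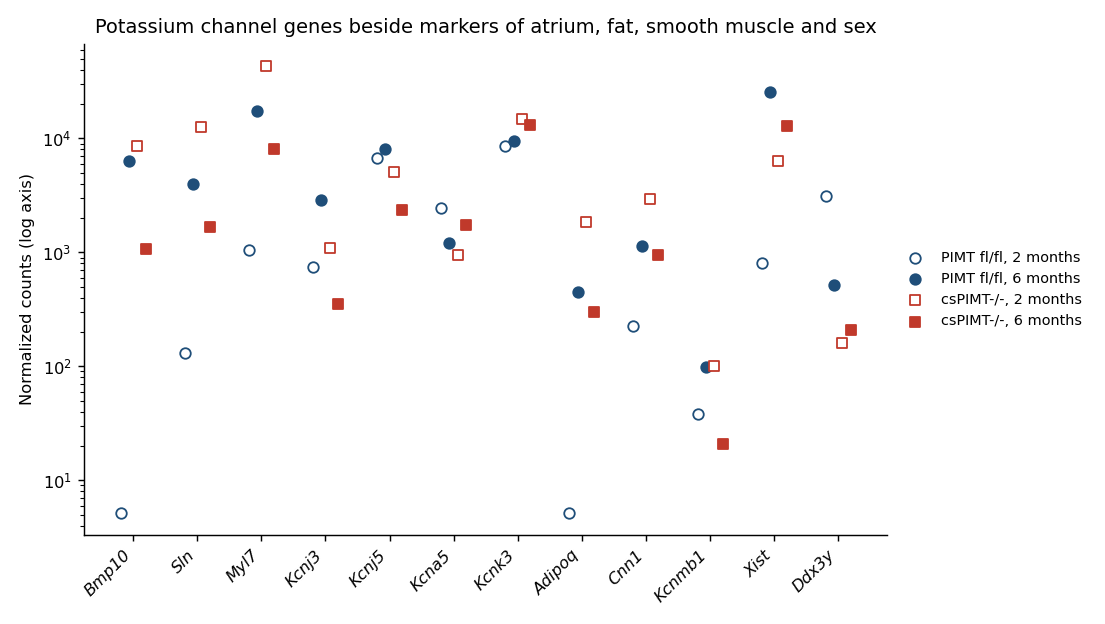
Normalized counts (log axis) of potassium channel genes beside markers of atrium (Bmp10, Sln, Myl7), fat (Adipoq), smooth muscle (Cnn1) and sex (Xist, Ddx3y) in each of the 4 libraries, each symbol being 1 library. The control library of 2 months lies far below the others for Bmp10 (5.19 normalized counts) and Adipoq (5.19), and Kcnj3 spans 353.7 to 2893.

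The pore-forming members share the selectivity filter, a loop of 5 residues that strips potassium of its water and admits it in preference to sodium. To show how alike the genes are at this point, the longest coding sequence of each gene (GENCODE M21, GRCm38) was searched for a threonine or serine codon followed by a valine, isoleucine, leucine or threonine codon, a glycine codon, a tyrosine, phenylalanine or leucine codon and a second glycine codon. A signature was found in all 50 pore-forming genes searched and in none of the 12 beta subunits. It occurred 1 time in 44 genes and 2 times in the 6 Kcnk genes, whose subunits each carry a pair of pore loops. Of the 56 signatures 41 had tyrosine at the fourth codon, 13 had phenylalanine and 2 had leucine. The coding windows of genes on which the comparisons below turn follow 5′ to 3′ on the coding strand, with the 5 filter codons in capitals.
Kcnd2 (transient outward, spans a splice junction): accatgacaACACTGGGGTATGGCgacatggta
Kcna4 (transient outward, chr2:107296486-107296518, plus strand): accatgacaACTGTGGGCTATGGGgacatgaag
Kcnh2 (rapid delayed rectifier, chr5:24325546-24325578, minus strand): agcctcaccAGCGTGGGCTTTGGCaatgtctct
Kcnj2 (inward rectifier, chr11:111072198-111072230, plus strand): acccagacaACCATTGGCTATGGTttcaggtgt
Kcnj14 (inward rectifier, chr7:45819624-45819656, minus strand): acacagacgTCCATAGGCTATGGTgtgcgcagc
Kcnj3 (G protein-gated, chr2:55437618-55437650, plus strand): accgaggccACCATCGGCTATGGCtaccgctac
Kcnk3 (background channel, the second pore loop, chr5:30622193-30622225, plus strand): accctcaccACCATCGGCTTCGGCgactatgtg
The signature opens with a threonine codon in 5 of these 7 windows and with a serine codon in those of Kcnh2 and Kcnj14, and Kcnh2 and the second loop of Kcnk3 have phenylalanine in place of tyrosine. The genes set side by side here thus share nearly the same filter, while their RNA differed between genotypes in both directions.

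The comparison of csPIMT-/- with control hearts of the same age addresses how loss of PIMT from cardiomyocytes relates to the RNA of each channel. With 1 library per group no p-value can be given for 1 age, and the 95% intervals below come from the 2 read counts alone (Clopper-Pearson) and cover neither the variation between mice nor that between pools. At 2 months 14 of the 63 potassium channel genes lay more than 2-fold below the control in csPIMT-/- hearts, as did 22.2% of all 15589 genes, and 20 lay more than 2-fold above it, Kcnip1 with 0 and 2 reads included, as did 17.5% of all genes. At 6 months 19 were more than 2-fold lower (24.7% of all genes) and 12 more than 2-fold higher (17% of all genes). As shares of the 63 genes these were 22.2% and 31.7% at 2 months and 30.2% and 19% at 6 months. The higher genes of 2 months included Kcnc1, Kcnf1, Kcnk1, Kcns1 and Kcns3, which met the minimum of reads only in a csPIMT-/- library. The lower genes of that age included Kcnh8 and Kcnmb4, which met it only in a control library. The median log2 ratio of the potassium channel genes was 0.109 at 2 months and -0.138 at 6 months, beside 0.009 and 0.006 over all genes.

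The potassium channel genes also differed between the controls of the 2 ages. From 2 to 6 months 10 lay more than 2-fold lower in control hearts, 15.9% of the 63 beside 4.93% of all genes, and 18 were more than 2-fold higher, 28.6% beside 9.39%. Between the csPIMT-/- libraries 13 were more than 2-fold lower at 6 than at 2 months (20.6% beside 8.72%) and 7 higher (11.1% beside 9.85%). Potassium channel genes past 2-fold were found at every depth. Between the controls they were 13 of the 24 genes with fewer than 100 reads in every library. They were 11 of the 21 genes with at least 100 but fewer than 1000 reads in their highest library. With 1000 or more reads they were 4 of 18. The share of all genes at each depth was not counted, so the part of depth in these differences was not tested.

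The share of potassium channel genes higher at both ages was close to that of all genes, and the share lower at both was smaller. Of the 63 genes, 6 were more than 2-fold lower at both ages (9.52% beside 15.5% of all genes), namely Kcna4, Kcnd2, Kcne1, Kcnn2, Kcnh8 and Kcnq1ot1. Another 5 were higher at both (7.94% beside 8.08% of all genes), namely Kcnc1, Kcnf1, Kcnh1, Kcnj4 and Kcnj14. Of these 11, Kcnh8, Kcnc1 and Kcnf1 met the minimum of reads in 1 genotype only, so that a difference was built into their choice. Another 6 were past 2-fold in opposite directions, 9.52% of the 63 genes beside 2.2% of all genes, and 1 of these, Kcnip1, rested on 0 and 2 reads at 2 months, for which no fold is given. Because the control of 2 months stood apart, each csPIMT-/- library was also set against both controls. In the csPIMT-/- library of 2 months 4 potassium channel genes were more than 2-fold below each control (18.9% of all genes) and 8 above (9.89%), and in that of 6 months 10 were below (17.5%) and 7 above (12.3%). The 8 included Kcnc1, Kcnf1, Kcnk1, Kcns1 and Kcns3, which met the minimum of reads only in a csPIMT-/- library. The 7 included Kcnc1 and Kcnf1, and the 10 included Kcnh8, which met it only in a control library. For these genes the direction was favoured by the choice. Both csPIMT-/- libraries lay more than 2-fold below both controls for 3 genes, Kcna4, Kcnd2 and Kcne1 (12.4% of all genes), and more than 2-fold above both controls for 4, Kcnc1, Kcnf1, Kcnh1 and Kcnj4 (5.29% of all genes).

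**Figure D2:**
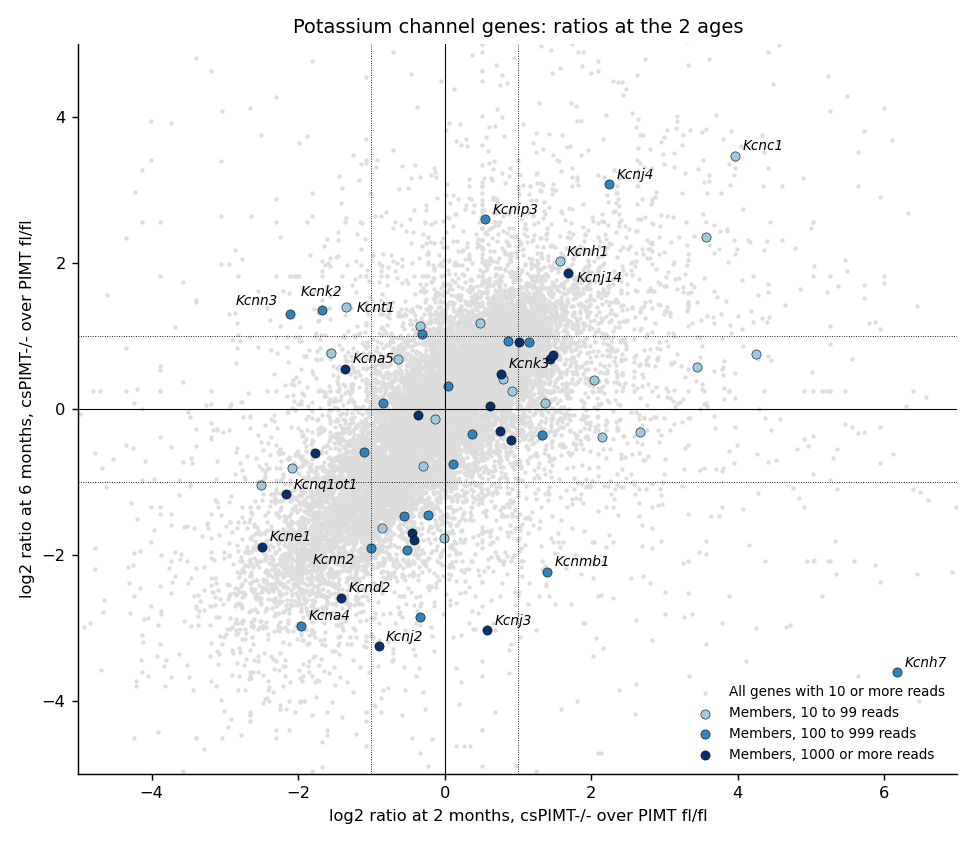
log2 ratio of csPIMT-/- over PIMT fl/fl hearts at 2 months (horizontal) and 6 months (vertical) for all genes with 10 or more reads (grey) and for potassium channel genes, shaded by the reads of their highest library. Dotted lines mark 2-fold, 0.5 reads were added to each count, Kcnip1 is left out for want of reads at 2 months, and Kcnh7 lies at 6.18 only because its control of 2 months had 0 reads.

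A fit over all 4 libraries with genotype and age as terms (limma on log2 normalized counts plus 1, mean trend of the variance) gave genotype an error, with 1 residual degree of freedom. At an adjusted p under 0.05 (Benjamini-Hochberg over 15589 genes) 6 potassium channel genes were lower in csPIMT-/- hearts, beside 16.9% of all genes, and 5 were higher, beside 10.6%. Among the lower genes were Kcne1, Kcna4, Kcnd2, Kcnq1ot1 and Kcnj2, and the higher genes were Kcnj14, Kcnj4, Kcng2, Kcnt2 and Kcnc1. Kcnc1 met the minimum of reads in csPIMT-/- hearts only, so that its higher level was built into its choice and its call is no evidence of a rise. No gene at all passed when limma estimated the variance without the mean trend or once the GC trend of all genes had been taken out, where 18 and 11 potassium channel genes had an unadjusted p under 0.05. edgeR on the recovered whole reads called the same 11 genes and Kcnn1.

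The Kcnd channels carry the fast transient outward current, the main repolarising current of the mouse ventricle, and Kcnd2 and Kcnd3 were lower in csPIMT-/- hearts at 6 months. Kcnd2 (Kv4.2; chromosome 6, 21215503 to 21729805) had 2312 and 2667 normalized counts in the controls of 2 and 6 months and 870.4 and 443 in csPIMT-/- hearts. Both csPIMT-/- values lay below both controls, 2.66-fold lower at 2 months (ratio 0.376, 95% interval 0.346 to 0.409) and 6.02-fold at 6 months (0.166, 0.15 to 0.184), and Kcnd2 fell in the limma fit (log2 difference -2.0, SE 0.34, adjusted p = 0.019). Kcnd3 (Kv4.3) had 456 and 1168 normalized counts in the controls and 335 and 358 in csPIMT-/- hearts, which was 0.735 of the control at 2 months and 0.306 at 6 months. For Kcnd3 the control of 2 months was nearer to both csPIMT-/- libraries than to the older control, and the limma difference of -1.07 did not pass (SE 0.384, adjusted p = 0.092). Kcnd1, the remaining member, had between 13.2 and 29.6 normalized counts.

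Kcnip2 encodes KChIP2, the calcium-binding subunit that carries Kv4 channels to the surface, and it did not go with Kcnd2. Its levels were 3067 and 2431 normalized counts in the controls and 4720 and 2491 in csPIMT-/- hearts, so that it was 1.54 times the control at 2 months (95% interval 1.47 to 1.61) and 1.02 times at 6 months (0.97 to 1.08). The limma log2 difference was 0.33 (SE 0.24, adjusted p = 0.34). With the GC trend of all genes subtracted the ratios of Kcnip2 were 1.03 and 0.68, beside 0.636 and 0.317 for Kcnd2. Kcnip3, a neuronal relative named here after its values were seen, had 55.4, 60.7 and 81.4 normalized counts in the controls and the csPIMT-/- library of 2 months and 370.4 in that of 6 months, 6.1 times its control (95% interval 4.7 to 8.02).

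**Figure D3:**
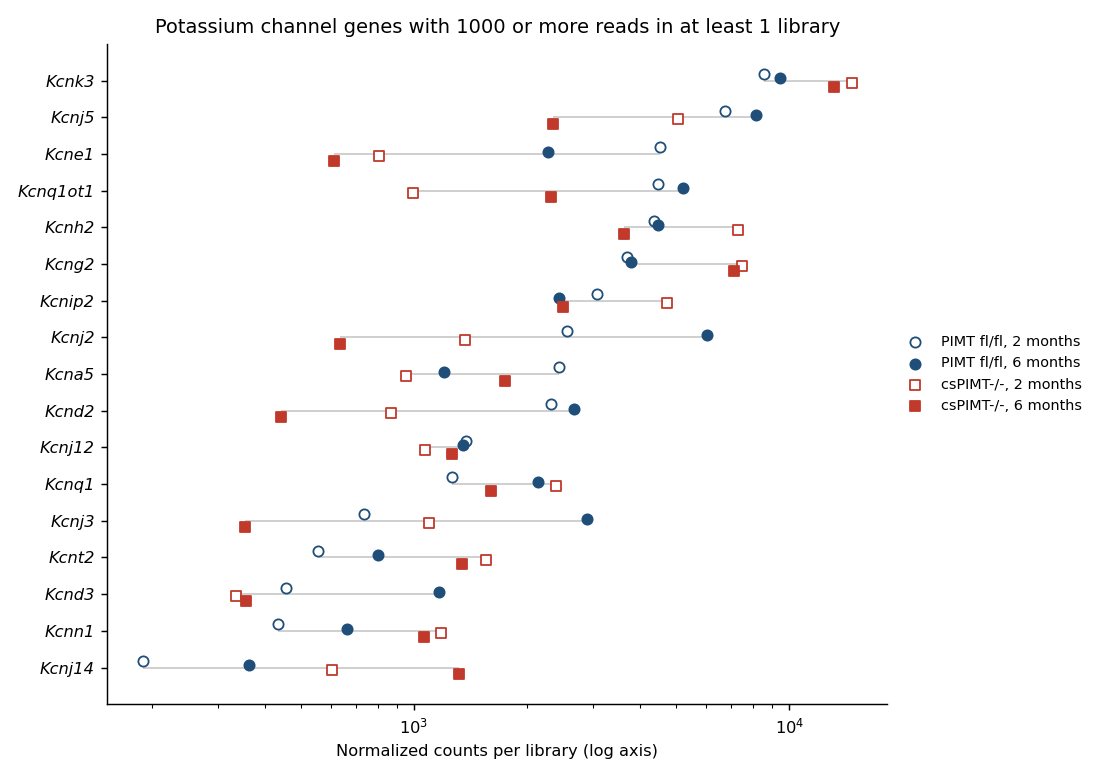
Normalized counts (log axis) of the potassium channel genes with 1000 or more reads in at least 1 library, 1 of which is not drawn, each symbol being 1 library and each grey line the range of a gene. Both csPIMT-/- libraries lie below both controls for Kcne1, Kcnd2, Kcnj2, Kcnj5, Kcnq1ot1, Kcnd3 and, by little (ratios 0.779 and 0.937), Kcnj12. They lie above both for Kcnk3, Kcng2, Kcnt2, Kcnn1 and Kcnj14. The share of all genes that separate in this way was not counted.

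Among the 7 Kcna genes 3 were more than 2-fold lower and 2 higher at 2 months, beside 22.2% and 17.5% of all genes. At 6 months 1 was lower, beside 24.7% of all genes. That gene was Kcna4 (Kv1.4; chromosome 2, 107290639 to 107298502), which carries the slow transient outward current. Kcna4 had 299.4 and 624 normalized counts in the controls and 76.4 and 79.1 in csPIMT-/- hearts. It was 3.92-fold lower at 2 months (ratio 0.255, 95% interval 0.192 to 0.335) and 7.9-fold lower at 6 months (0.127, 0.0986 to 0.161), and fell in the limma fit (log2 difference -2.46, SE 0.416, adjusted p = 0.019). The csPIMT-/- values were nearly equal at the 2 ages, and the wider ratio at 6 months came with a control 2.09 times that of 2 months.

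Kcna5 (Kv1.5) carries the ultrarapid delayed rectifier and is best known from the atrium. It had 2437 and 1199 normalized counts in the controls and 951.8 and 1752 in csPIMT-/- hearts, 0.391 of the control at 2 months (95% interval 0.36 to 0.423) and 1.46 times at 6 months (1.36 to 1.57). The values of the 2 genotypes interleaved, and against the other control the csPIMT-/- libraries stood at 0.794 and 0.719. Kcna2 had 106.4, 215.5, 114.7 and 126.9 normalized counts in the controls of 2 and 6 months and the csPIMT-/- hearts of 2 and 6 months, so the 2-month control was the lowest. Kcna7, a muscle channel, had 160.9 in the control of 2 months and between 356.8 and 459.1 in the other 3 libraries, and its ratio of 2.51 at 2 months became 0.881 against the control of 6 months. The remaining Kcna genes had log2 ratios between -1.10 and 2.15 at 2 months, the highest from 9 and 29 reads of Kcna3.

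Kcnc1 (Kv3.1), a fast delayed rectifier best known from neurons, stood higher in csPIMT-/- hearts from a low level, with 3 and 5 reads in the controls and 38 and 51 in csPIMT-/- hearts. Its ratios were 18 at 2 months (95% interval 5.73 to 91.4) and 12.1 at 6 months (4.85 to 38.7). Because the gene met the minimum of 10 reads only in csPIMT-/- libraries, a higher level there was built into its choice. Its place among the genes called higher by limma is therefore no evidence of a rise. The other 3 Kcnc genes had at most 86 reads in any library.

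Kcne1 encodes minK, the beta subunit that slows Kcnq1 into the slow delayed rectifier and it was lower in csPIMT-/- hearts at both ages. Kcne1 (chromosome 16, 92345982 to 92359468) had 4534 and 2274 normalized counts in the controls and 807.6 and 611.7 in csPIMT-/- hearts, 5.61-fold lower at 2 months (ratio 0.178, 95% interval 0.164 to 0.193) and 3.72-fold lower at 6 months (0.269, 0.246 to 0.294). It had the lowest adjusted p of the potassium channel genes in the limma fit (log2 difference -2.19, SE 0.253, adjusted p = 0.014). Its pore partner Kcnq1 (chromosome 7, 143106362 to 143427042) did not share this pattern on the deposited scale. Kcnq1 had 1266 and 2145 normalized counts in the controls and 2386 and 1600 in csPIMT-/- hearts. This was 1.88 times the control at 2 months and 0.746 of it at 6 months, with a limma log2 difference of 0.25 (SE 0.359, adjusted p = 0.63). With the GC trend of all genes subtracted the ratios of Kcnq1 were 1.19 and 0.467, more than 2-fold lower at 6 months only. In length-scaled levels, as normalized counts per kilobase of the longest transcript, Kcne1 stood at 1430 and 717 in the controls beside 418 and 708 for Kcnq1, and at 254 and 193 beside 788 and 528 in csPIMT-/- hearts. On this scale Kcne1 thus stood above Kcnq1 in the control of 2 months, at nearly the same level in that of 6 months and below it in both csPIMT-/- libraries.

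Kcnq1ot1 is a long noncoding RNA of the paternal allele that is read from the opposite strand within Kcnq1 (chromosome 7, 143203458 to 143296549, minus strand) and silences neighbouring imprinted genes. It had 4464 and 5216 normalized counts in the controls and 995 and 2311 in csPIMT-/- hearts, 4.49-fold and 2.26-fold lower at 2 and 6 months, and fell in the limma fit (log2 difference -1.67, SE 0.297, adjusted p = 0.02). The gene overlaps Kcnq1, and whether reads were counted by strand was not given in the sources used here. With the GC trend of all genes taken out, its log2 ratio at 6 months turned from -1.17 to 0.30. Kcnq5 had 32.9 and 101.1 normalized counts in the controls and 25.9 and 13.5 in csPIMT-/- hearts.

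Kcnh2 (ERG), the pore of the rapid delayed rectifier, was well covered and stayed within 2-fold at both ages. It had 4362 and 4480 normalized counts in the controls and 7316 and 3627 in csPIMT-/- hearts, 1.68 times the control at 2 months (95% interval 1.62 to 1.74) and 0.81 of it at 6 months (0.775 to 0.845), on either side of the controls. With the GC trend of all genes subtracted the ratios were 1 and 0.468, so that it lay more than 2-fold lower at 6 months on that scale. Kcnh1 (EAG), a channel known mainly from brain, had 19 and 21 reads in the controls and 40 and 73 in csPIMT-/- hearts, 3 and 4.11 times the control, and did not pass in limma (adjusted p = 0.08). Kcnh7, also neuronal, had 0 reads in the control of 2 months, 122 in that of 6 months and 25 and 8 in csPIMT-/- hearts. Against the limit of 3 reads that a count of 0 allows, and with the 25 reads taken as exact, it was at least 11.9-fold higher in csPIMT-/- hearts at 2 months, and with the counting error of both libraries the lower 95% limit was 8.96-fold. At 6 months it was 12.9-fold lower. Kcnh6 and Kcnh8 had at most 44 reads in any library.

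The 8 Kcnj genes, which encode inward rectifiers, divided into lower and higher members. At 6 months 4 of them were more than 2-fold lower and 3 higher, and at 2 months none was more than 2-fold lower and 2 were higher. Their summed level was 11746 and 19006 normalized counts in the controls and 9434 and 6276 in csPIMT-/- hearts. Kcnj2 (Kir2.1; chromosome 11, 111066164 to 111076821) supplies most of the current that holds the resting voltage of the ventricle. It had 2553 and 6042 normalized counts in the controls and 1364 and 635.7 in csPIMT-/- hearts, 1.87-fold lower at 2 months (ratio 0.534, 95% interval 0.498 to 0.573) and 9.51-fold lower at 6 months (0.105, 0.0967 to 0.114). Kcnj2 fell in the limma fit (log2 difference -2.08, SE 0.55, adjusted p = 0.045). Since the control of 6 months was 2.37 times that of 2 months, the csPIMT-/- library of 6 months stood at 0.249 of the younger control.

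Kcnj12 (Kir2.2), which forms channels with Kcnj2, differed little, with 1377 and 1352 normalized counts in the controls and 1073 and 1266 in csPIMT-/- hearts (ratios 0.779 and 0.937). Kcnj4 (Kir2.3; chromosome 15, 79483714 to 79505241) and Kcnj14 (Kir2.4; chromosome 7, 45816460 to 45824782), the remaining members of the same subfamily, rose. Kcnj4 had 31.2 and 33.4 normalized counts in the controls and 149.2 and 286.1 in csPIMT-/- hearts, 4.79 times the control at 2 months (95% interval 3.28 to 7.16) and 8.56 times at 6 months (6.08 to 12.4), with a limma log2 difference of 2.64 (SE 0.481, adjusted p = 0.021). Kcnj14 had 189.5 and 363 normalized counts in the controls and 606.6 and 1319 in csPIMT-/- hearts, 3.2 times the control at 2 months (2.72 to 3.77) and 3.63 times at 6 months (3.25 to 4.07), with a limma log2 difference of 1.77 (SE 0.276, adjusted p = 0.016). All csPIMT-/- values of both genes lay above all control values, and the share of all genes that did so was not counted. Per kilobase of transcript, Kcnj2 stood at 469 and 1110 and Kcnj14 at 70.7 and 135 in the controls, and in csPIMT-/- hearts Kcnj2 stood at 250 and 117 and Kcnj14 at 226 and 492. The order of Kcnj2 and Kcnj14 on this scale was the same in the csPIMT-/- library of 2 months as in the controls and was reversed in that of 6 months.

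Kcnj3 (GIRK1) and Kcnj5 (GIRK4) form the acetylcholine-gated channel of the atrium and the pacemaker tissue. Kcnj3 had 736.4 and 2893 normalized counts in the controls and 1100 and 353.7 in csPIMT-/- hearts, 1.49 times the control at 2 months (95% interval 1.36 to 1.64) and 8.18-fold lower at 6 months (ratio 0.122, 0.109 to 0.137). The controls alone differed 3.93-fold, and against the control of the other age the csPIMT-/- libraries stood at 0.38 and 0.48. Kcnj5 had 6745 and 8148 normalized counts in the controls and 5046 and 2347 in csPIMT-/- hearts, 0.748 of the control at 2 months and 3.47-fold lower at 6 months (ratio 0.288, 0.275 to 0.302). Its csPIMT-/- values lay below both controls, but neither gene passed in limma (adjusted p = 0.3 for Kcnj3 and 0.072 for Kcnj5). The atrial marker Bmp10 had 6296 normalized counts in the control of 6 months and 1079 in the csPIMT-/- library of that age, and Myl7 had 17299 and 8084. Whether the lower Kcnj3 and Kcnj5 reflected fewer atrial cells or less RNA per cell cannot be told apart in bulk heart, which holds for every gene here. Kcnj15 had 103 and 172.4 normalized counts in the controls and 87.5 and 62.4 in csPIMT-/- hearts, and Kcnj10 at most 13 reads.

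Kcnk3 (TASK-1; chromosome 5, 30588170 to 30625271), an acid-sensitive background channel, had the highest level per kilobase of all potassium channel genes in both genotypes. Its normalized counts were 8588 and 9427 in the controls and 14667 and 13164 in csPIMT-/- hearts, 1.71 times the control at 2 months (95% interval 1.66 to 1.75) and 1.4 times at 6 months (1.36 to 1.43). The genotypes did not overlap, though the share of all genes without overlap was not counted, and the limma difference missed the threshold (log2 difference 0.63, SE 0.214, adjusted p = 0.081). Kcnk2 (TREK-1), a stretch-sensitive channel, had 127.2 and 52.8 normalized counts in the controls and 39.5 and 135.2 in csPIMT-/- hearts, 3.22-fold lower at 2 months (95% interval of the ratio 0.205 to 0.457) and 2.56 times the control at 6 months (1.87 to 3.54). Each csPIMT-/- library resembled the control of the other age, at ratios of 0.748 and 1.06. Kcnk6 (TWIK-2) had 475 and 359.7 normalized counts in the controls and 265.1 and 379.7 in csPIMT-/- hearts, and Kcnk1 (TWIK-1) at most 11 reads. Kcnk5 and Kcnk13 had ratios between 1.33 and 1.91.

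**Figure D4:**
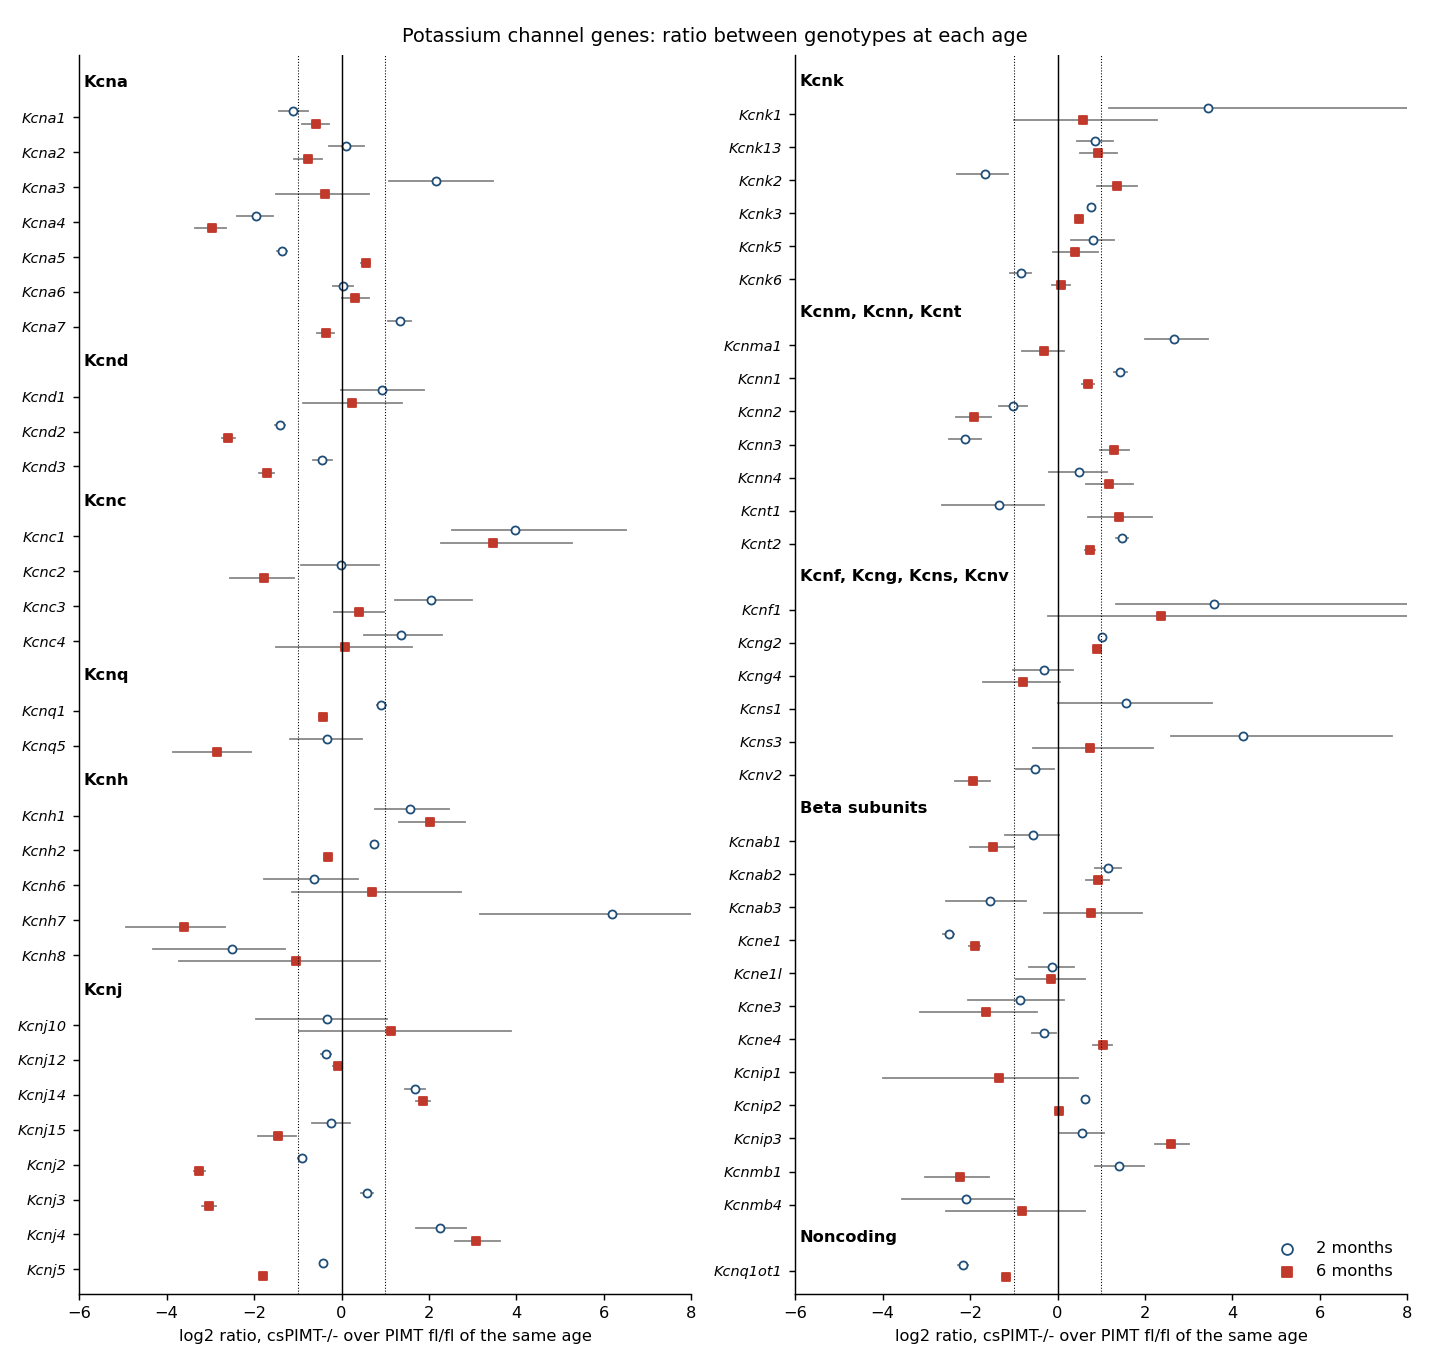
log2 ratio of csPIMT-/- over PIMT fl/fl hearts at 2 months (open circles) and 6 months (filled squares) for the potassium channel genes by family, with 95% counting intervals as grey lines, cut at the edges of the axis, and 2 genes not drawn. Dotted lines mark 2-fold, 1 library stands behind each group, Kcnip1 is not drawn at 2 months, and the point of Kcnh7 at 2 months depends on the 0.5 reads added to a count of 0.

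The channels opened by calcium or sodium inside the cell were mixed. Of 7 genes 3 were more than 2-fold lower and 3 higher at 2 months, beside 22.2% and 17.5% of all genes. At 6 months 1 was lower and 3 higher, beside 24.7% and 17% of all genes. Kcnn2 (SK2), which shapes atrial repolarisation, had 265.6 and 254.2 normalized counts in the controls and 131.9 and 67.6 in csPIMT-/- hearts, 2.01-fold lower at 2 months and 3.76-fold lower at 6 months (limma log2 difference -1.45, SE 0.417, adjusted p = 0.055). Its relative Kcnn3 (SK3) had 395.4 and 98.5 in the controls and 91.2 and 243.4 in csPIMT-/- hearts, so that it was 4.33-fold lower at 2 months and 2.47 times the control at 6 months, while the control of 6 months stood at 0.249 of that of 2 months. Kcnn4, a channel of blood cells and fibroblasts, had 35.5 and 41.3 in the controls and 49.3 and 93.6 in csPIMT-/- hearts. Kcnma1, the large-conductance channel of smooth muscle, had 18.2, 80.9, 117.1 and 64.5 normalized counts in the 4 libraries in the same order. Its beta subunit Kcnmb1 had 38.1, 99.4, 101.1 and 20.8, and was 2.66 times the control at 2 months and 4.78-fold lower at 6 months. Of 5 smooth muscle markers 3 were more than 2-fold higher in csPIMT-/- hearts at 2 months and none was past 2-fold at 6 months, with summed levels of 54664 and 40639 in the controls and 67321 and 30754 in csPIMT-/- hearts. The part of smooth muscle in the values of Kcnma1 and Kcnmb1 was not tested.

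Kcnt1 and Kcnt2 (Slack and Slick) encode the sodium-activated channels. Kcnt2 had 556.4 and 803.8 normalized counts in the controls and 1551 and 1346 in csPIMT-/- hearts, 2.79 times the control at 2 months (95% interval 2.53 to 3.07) and 1.67 times at 6 months (1.54 to 1.82), and rose in the limma fit (log2 difference 1.11, SE 0.283, adjusted p = 0.041). It was the most AT-rich of the 63 genes, with 36.6% GC. Kcnt1 had 34 and 24 reads in the controls and 9 and 54 in csPIMT-/- hearts, 2.65-fold lower at 2 months and 2.66 times the control at 6 months.

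The electrically silent Kcnf, Kcng, Kcns and Kcnv subunits form channels only together with other voltage-gated subunits. Kcng2 (Kv6.2; chromosome 18, 80294546 to 80364254) was the most abundant of them, with 3686 and 3798 normalized counts in the controls and 7474 and 7132 in csPIMT-/- hearts. It was 2.03 times the control at 2 months (95% interval 1.95 to 2.11) and 1.88 times at 6 months (1.81 to 1.95), and rose in the limma fit (log2 difference 0.96, SE 0.201, adjusted p = 0.027). Kcnv2 had 117.7 and 255.9 normalized counts in the controls and 82.6 and 66.6 in csPIMT-/- hearts, 3.84-fold lower at 6 months. Kcnf1 had 1 read in each control and 12 and 6 in csPIMT-/- hearts, with a ratio of 17.1 at 2 months (95% interval 2.53 to 731). Kcng4, Kcns1 and Kcns3 had at most 53 reads.

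Of the 12 beta subunits, Kcne1 apart, 2 were more than 2-fold lower and 3, Kcnip1 included, higher at 2 months. At 6 months 4 were lower and 2 higher. Over all genes 22.2% were lower and 17.5% higher at 2 months, and 24.7% and 17% at 6 months. Kcne4, which damps Kcnq1, had 279.5 and 237.5 normalized counts in the controls and 225.6 and 486.9 in csPIMT-/- hearts, 2.05 times the control at 6 months (95% interval 1.76 to 2.39). Kcne3 had at most 29 reads and Kcne2, a partner of Kcnh2, had 0 reads in every library. Kcnab1 and Kcnab2 bind Kv1 channels, and Kcnab1 had 62.3 and 131 normalized counts in the controls and 41.9 and 46.8 in csPIMT-/- hearts, whereas Kcnab2 had 128.1 and 174.1 in the controls and 284.8 and 328.8 in csPIMT-/- hearts. Neither passed in limma (adjusted p = 0.19 and 0.077).

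A list of 28 other genes that anchor, carry or regulate these channels gave 25 for comparison. More than 2-fold lower in csPIMT-/- hearts were 6 of the 25 at 2 months and 6 at 6 months, beside 22.2% and 24.7% of all genes, and 0 and 4 were higher, beside 17.5% and 17%. The lower counts were thus close to the share of all genes. In limma 4 fell, beside 16.9% of all genes, and 2 rose, beside 10.6%. Akap9 (yotiao), the scaffold that brings protein kinase A to Kcnq1 and Kcne1, had 3752 and 6530 normalized counts in the controls and 954.3 and 1190 in csPIMT-/- hearts, with a limma log2 difference of -2.21 (SE 0.232, adjusted p = 0.014). Calm2, whose calmodulin sits on Kcnq1 and Kcnn channels, fell as well (limma log2 difference -1.51, adjusted p = 0.014), whereas Calm3, which encodes the same protein, had a difference of 0.45 (adjusted p = 0.21). Dlg1 (SAP97), a scaffold of Kv1 and Kir2 channels, fell with a log2 difference of -1.17 (adjusted p = 0.022). Gnb2, a G protein subunit, rose with a log2 difference of 0.84 (adjusted p = 0.036). The transcription factor genes Irx3, Irx4 and Irx5, of which Irx5 is known to set the gradient of Kcnd2 across the ventricular wall, had ratios between 0.678 and 1.28.

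The GC content of a transcript moved with its ratio between genotypes. Across 15404 genes Spearman's rho between GC content and log2 ratio was 0.568 at 2 months and 0.597 at 6 months, and across the 63 potassium channel genes it was 0.349 and 0.472, descriptions over genes that share the same libraries. The 6 genes lower at both ages had a median GC content of 45.4% and the 5 higher at both ages one of 56.5%, beside 52.4% for all 63. With the trend of all genes subtracted, the ratio of Kcne1 was 0.134 at 2 months and 0.194 at 6 months, lower than before. That of Kcna4 was 0.414 and 0.229 and that of Kcnd2 0.636 and 0.317. For Kcnj2 the ratios became 1.23 and 0.275, and for Kcnj3 2.64 and 0.246. Among the higher genes, Kcnj4 stood at 2.89 and 5.04, Kcnj14 at 2.03 and 2.3, Kcng2 at 1.21 and 1.08 and Kcnk3 at 1.04 and 0.836. The lower Kcne1, Kcna4 and Kcnd2 and the higher Kcnj4 and Kcnj14 thus kept their directions at both ages, while Kcng2 lay close to 1 and Kcnk3 crossed it at 6 months. Whether GC content itself acted on the measurement was not tested.

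**Figure D5:**
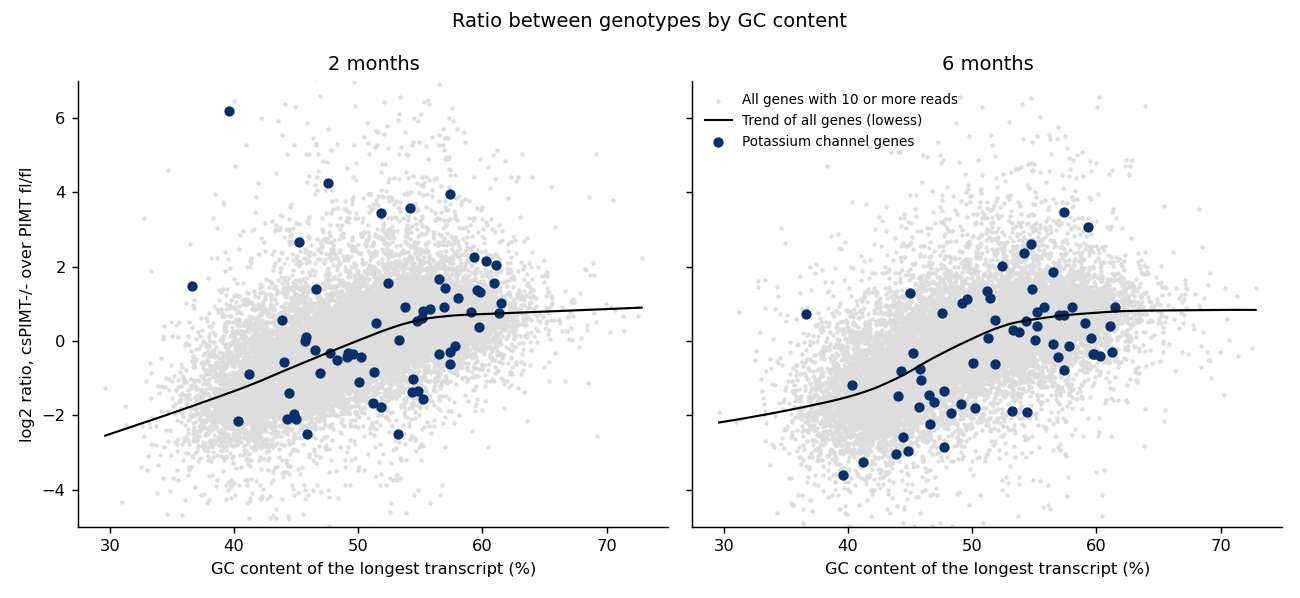
log2 ratio of csPIMT-/- over PIMT fl/fl hearts against the GC content of the longest transcript (%) at 2 and 6 months, for all genes with 10 or more reads (grey), their lowess trend (black line) and the potassium channel genes (blue). Kcnt2, at 36.6% GC, lies above the trend at both ages, and Kcnip1 is left out at 2 months.

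The order of levels was compared per kilobase of the longest transcript. In the controls Kcnk3 led with 2250 and 2470 normalized counts per kilobase at 2 and 6 months, followed by Kcnj5 with 1440 and 1740, Kcng2 with 1310 and 1350, Kcne1 with 1430 and 717 and Kcnh2 with 1030 and 1060. The range of Kcne1 over the controls covered those of Kcng2 and Kcnh2, so these neighbours in the order were not separated. In csPIMT-/- hearts Kcnk3 led with 3850 and 3450, followed by Kcng2 with 2660 and 2540 and Kcnh2 with 1730 and 859. Kcne1 went from rank 4 in the controls to rank 12, Kcnj2 from 7 to 13 and Kcnd2 from 11 to 18, whereas Kcnj14 went from rank 18 to 9.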

How the data were processed

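RNA-seq of 4 libraries, each a pool of 5 mouse hearts, was analysed without replicates. Per the paper's methods and the labels, mRNA was enriched with oligo-dT and directional libraries were read as 50-base single ends. The authors used STAR (mm10), htseq-count (HTSeq 0.6.1p1 in the submitters' processing notes) and DESeq2. The strand setting of the counting and the other versions were not given in the sources used here. The authors deposited 1 normalized count per gene and library, a signal scaled by size factors, although the header for csPIMT-/- hearts of 6 months speaks of read counts. In every library 100% of values were whole multiples of the smallest value above 0, within 4.9e-09 reads, which gave back whole reads. Totals were 39854713 and 40705783 reads in the controls of 2 and 6 months and 29823073 and 36172093 in csPIMT-/- hearts. Without molecular identifiers, intervals cover counting error only.

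Ratios were taken on the deposited scale, with 0.5 reads added for log2 ratios and 2-fold calls and 95% Clopper-Pearson intervals. limma 3.58.1 was fitted to log2(normalized count + 1) of 15589 genes. Its p-values set the genotype difference against the disagreement between the 2 ages, with the variance moderated over all genes. They do not measure the spread between pools of the same group. edgeR 4.0.16 on the recovered reads called 2709 genes lower and 1818 higher, 12 potassium channel genes among them. DESeq2 1.42.0, TMM scaling, other minimums, pseudocounts and controls and a lowess GC adjustment (span 0.3) were alternatives, and the scripts were tested on simulated data. GC content, length and coordinates came from GENCODE M21 (GRCm38), matched for all 63 genes and 98.8% of the genes tested. Counts are uncertain where paralogs or overlapping genes share reads. Labels gave no batch or date, so nothing was compared within batches.

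The genes and lists were chosen with earlier results of these data known, and the comparison with both controls after seeing the data. The naming rule took 33 of 35 listed repolarisation genes (Kcne2 and Kcnj16 lay below the minimum), other genes with 50 or more reads and past 2-fold in the same direction at both ages, genes past 2-fold in opposite directions and members of families of 1 or 2. Marker lists came from textbook knowledge. A few genes and sequences are not reported here, though the counts include them.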

Additional observations from a re-analysis of the deposited data

Results flagged for a closer look

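Genes are listed here because their ratio between genotypes was past 2-fold in opposite directions at 2 and 6 months, which is an age difference that was not tested, since each age had 1 library per genotype. Kcnn3 had log2 ratios of -2.11 at 2 months and 1.30 at 6 months, Kcnk2 of -1.67 and 1.35, and Kcnt1 of -1.35 and 1.40. Kcnmb1 had log2 ratios of 1.40 and -2.23, beside 3 of 5 smooth muscle markers past 2-fold higher at 2 months. Kcnh7 had 6.18 at 2 months, a value that depends on the 0.5 reads added to a count of 0, and -3.61 at 6 months.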

How the results depend on the processing

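No paired analysis was possible because each group was 1 library and the labels give no replicate numbers, and leaving out a library leaves the fit no residual degrees of freedom. Against each of both controls, a setting chosen after seeing the data, the counts of potassium channel genes past 2-fold went from 14 lower and 20 higher to 4 and 8 at 2 months and from 19 lower and 12 higher to 10 and 7 at 6 months. Higher genes at 2 months numbered 9 with a minimum of 100 reads, 31 with no minimum beyond 1 read and 13 when the whole counting interval had to lie past 2-fold. At 6 months they numbered 6 with the minimum of 100 reads and 5 with the whole interval. In limma 0 were lower and 0 higher without the mean trend (18 at an unadjusted p under 0.05) and 0 and 0 after the GC trend was subtracted (11 at an unadjusted p under 0.05), whereas edgeR called 6 lower and 6 higher and DESeq2 9 and 7. Among the named log2 ratios past 2-fold, the control of the other age turned those of Kcna7 at 2 months (-0.18), Kcnh7 at 2 and 6 months (-1.78 and 4.35) and Kcnn3 at 6 months (-0.70), both controls summed turned those of Kcnh7 at 2 months (-0.77) and Kcnn3 at 6 months (-0.03), and subtracting the GC trend turned that of Kcnq1ot1 at 6 months (0.30). Of the 30 named log2 ratios within 2-fold, 9, 7 and 7 turned in these settings, Kcnj3 at 2 months (0.58 to -1.39 with the control of the other age) and Kcnj2 at 2 months (-0.90 to 0.30 without the GC trend) among them, and 10, 7 and 6 moved past 2-fold. The causes were not tested. Of the named log2 ratios past 2-fold, 44 of 45 kept their direction under the GC setting and 40 of 44 against the other control, where 21 stayed past 2-fold. All 45 kept it under TMM scaling, size factors of the libraries compared and a pseudocount of 5 reads. Depth limits the 24 genes with fewer than 100 reads, and 1 pool per group limits all of them.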
